A study of Mus musculus with 16 samples.

Results

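Matrix metalloproteinases (MMPs) and tissue inhibitors of metalloproteinases (TIMPs) were followed through the RNA of cultured mouse astrocytes with and without the innate immune receptor NLRX1. The genes were taken by symbol from the deposited table of log2 CPM, the counts scaled to the size of each library and put on a log2 scale. The 10 symbols sought were Mmp2, Mmp3, Mmp9, Mmp10, Mmp13, Mmp14, Mmp15, Timp2, Timp3 and Timp4. Of these, 6 were found among the 16707 genes of the table, namely Mmp2, Mmp14, Mmp15, Timp2, Timp3 and Timp4. The other 4 (Mmp3, Mmp9, Mmp10 and Mmp13) were too low for the table and are described from their reads.

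The study asked how NLRX1 shapes the response of astrocytes to inflammatory stimulation. Astrocytes were taken with ACSA-2 beads from the brains of WT and Nlrx1-/- pups labelled postnatal day 6. They were grown in serum-free medium with heparin-binding EGF and received either water as vehicle or 500 ng/mL lipopolysaccharide (LPS) with 10 ng/mL interferon gamma (IFNγ) for 24 hours. There were 16 libraries from 8 litters, 4 of each genotype, and each litter gave 1 vehicle and 1 stimulated library. All cells of a litter had 1 genotype, so genotype was compared between litters and the stimulus within them. The part of Nlrx1 removed in the Nlrx1-/- mice is not given in the sources used here.

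MMPs are zinc-dependent enzymes that cut proteins of the extracellular matrix, and most are secreted as inactive proenzymes. MMP14 and MMP15 are membrane-type MMPs that are anchored in the cell surface. MMP2 and MMP9 are the gelatinases, which digest denatured collagen and the type IV collagen of basement membranes. MMP3 and MMP10 are stromelysins and MMP13 is a collagenase. TIMPs bind the active site of MMPs, and TIMP2 has a further role, since a complex of TIMP2 with MMP14 at the cell surface captures proMMP2 for activation. In the brain, MMPs act on the basement membrane of vessels and on the perineuronal matrix.

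In GRCm39 (GENCODE M39), Mmp13 (chr9:7272514-7283331), Mmp3 (chr9:7445822-7455975) and Mmp10 (chr9:7502353-7510241) lie near each other on the chromosome that also carries Nlrx1 (chr9:44164011-44179896). Mmp2 (chr8:93553902-93580049) and Mmp15 (chr8:96078895-96101708) share a chromosome, and Mmp14 is at chr14:54668878-54682821 and Mmp9 at chr2:164780439-164797771. The inhibitors are spread over the genome, with Timp2 at chr11:118191887-118246566, Timp3 at chr10:86136236-86185371 and Timp4 at chr6:115187773-115229336.

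RefSeq promoter windows of Mmp3, Mmp10 and Mmp13, which had almost no reads, are shown first, followed by a short stretch for Mmp14. RefSeq promoter sequences (taken from GRCm38.p6, 250 bases before the start and 50 after it) were given for 8 of the 10 members, all but Mmp2 and Mmp9. Each of the 8 matched GRCm39 at 1 place. The last 120 bases before the RefSeq start of Mmp3, Mmp10 and Mmp13, all on the plus strand of chromosome 9, and the last 30 bases for Mmp14 on chromosome 14, also plus strand, read as follows, with the AP-1 motif TGANTCA, the TATA box TATAAA and the GC box GGGCGG in capitals.
Mmp3 (chr9:7445702-7445821): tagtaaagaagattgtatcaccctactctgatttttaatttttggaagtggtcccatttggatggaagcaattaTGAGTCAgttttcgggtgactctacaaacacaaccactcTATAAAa
Mmp10 (chr9:7502223-7502342): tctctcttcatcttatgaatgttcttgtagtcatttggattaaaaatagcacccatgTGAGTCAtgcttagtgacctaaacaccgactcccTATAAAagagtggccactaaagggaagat
Mmp13 (chr9:7272394-7272513): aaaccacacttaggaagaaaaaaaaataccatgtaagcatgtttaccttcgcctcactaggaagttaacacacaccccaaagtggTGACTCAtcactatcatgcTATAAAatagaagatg
Mmp14 (chr14:54669025-54669054): ggagggcattgGGGCGGGGGCGGaggagag

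The AP-1 motif, the letters bound by Fos and Jun dimers, began 46 bases before the start of Mmp3, 63 before that of Mmp10 and 35 before that of Mmp13. Each of these promoters also held TATAAA, at 7, 29 and 16 bases before the start. Neither motif was found in the 250 bases before the RefSeq starts of Mmp14, Mmp15, Timp2, Timp3 or Timp4. The windows compared are not alike, however. For these genes the GENCODE gene begins before the RefSeq start, so part of the window lies inside the gene. For Timp2 all of it does, and so do the Mmp14 bases shown above. For Mmp3, Mmp10 and Mmp13 the whole window lies before the GENCODE gene. On either strand, TGANTCA was present in 6.75% and TATAAA in 12.4% of 32851 promoters of this length. The GC box, bound by Sp1-type factors, was present in 32.7% of them. It was found before Mmp14 at 19 and 13 bases, the later match overlapping none of the earlier one, and before Mmp15, Timp2 and Timp3 at 106, 37 and 15 bases. Of the motifs linked to IFNγ and NF-kB signalling, the GAS letters TTCNNNGAA (7.02% of promoters) and the NF-kB consensus (7.25%) were found in none of the 8 promoters. The ISRE consensus (2.98%) was found once, 146 bases before Mmp13. Timp4 held none of the 6 motifs in this window. A match of letters is a description of the sequence and not a binding site.

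The libraries held 27259420 to 43752903 assigned reads. Nlrx1 lay between 4.08 and 4.44 log2 CPM in the WT libraries and between 1.09 and 2.96 in the Nlrx1-/- libraries, with no overlap, so the labels fit the targeted gene. The astrocyte markers were abundant, from 2692 to 6867 TPM (transcripts scaled by their length and by the library's total) summed over 10 genes. Of the 9 microglial markers, 4 stayed under 10 reads in every library. The Nlrx1-/- litters differed among themselves. Litters 2 and 4 had the least Gfap (124 and 249 TPM in vehicle) and Mbp (4.94 and 7.23 TPM). Litter 3 had the most of both (1080 TPM of Gfap and 137 TPM of Mbp), close to the WT litters, with 675 to 2060 TPM of Gfap and 85.7 to 221 TPM of Mbp in vehicle. Nlrx1 itself was lowest in litter 3 (1.84 log2 CPM in vehicle and 1.09 stimulated). Since litter 3 lay nearest to WT, leaving it out widens the differences between genotypes by construction, and values without it are given beside those without the other litters as a description only. In bulk RNA, fewer cells of a type and less RNA per cell cannot be told apart.

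Levels between genes were compared in TPM, which corrects for transcript length. In WT vehicle libraries the inhibitors stood highest, with Timp2 at 279.8 ± 27.88 TPM and Timp3 at 223.0 ± 31.13 TPM (SD, n = 4). The membrane-type enzymes followed, Mmp14 at 114.2 ± 16.9 TPM and Mmp15 at 101.8 ± 11.2 TPM (SD, n = 4). Timp4, the brain and heart TIMP, reached 42.91 ± 9.645 TPM and Mmp2 6.656 ± 0.507 TPM (SD, n = 4). Timp2 overlapped with Timp3 and Mmp14 overlapped with Mmp15 between libraries, while the other neighbours in this order did not overlap. Mmp9, Mmp3, Mmp10 and Mmp13 were at most at 0.434 TPM in any library.

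Timp2 again had the highest mean in stimulated WT libraries (190.8 ± 16.17 TPM) and in Nlrx1-/- vehicle libraries (177.9 ± 53.84 TPM, SD, n = 4). It overlapped with the next gene in both. In stimulated Nlrx1-/- libraries Mmp15 had the highest mean, at 153.3 ± 29.36 TPM, with Mmp14 next at 125.6 ± 8.49 TPM (SD, n = 4). Timp2 was at 114.0 ± 45.68 TPM and Timp3 at 110.2 ± 20.43 TPM (SD, n = 4). These 4 genes overlapped each in turn with the next, so their order is not resolved by 4 litters. Timp4 at 12.15 ± 3.004 TPM and Mmp2 at 6.302 ± 2.382 TPM remained lowest (SD, n = 4).

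**Figure D1:**
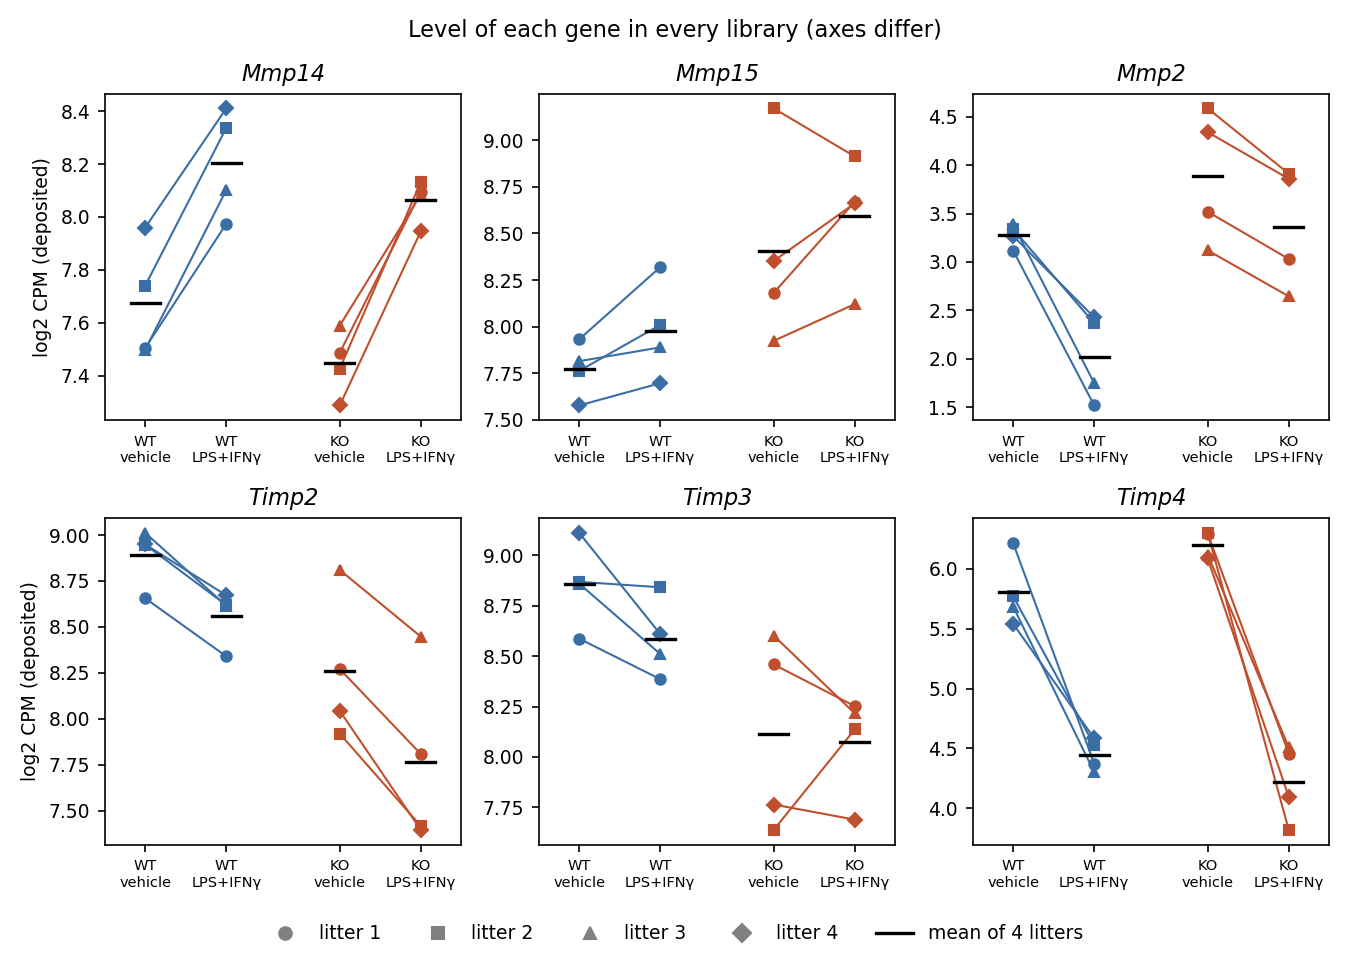
Deposited log2 CPM of the 6 genes in all 16 libraries, WT in blue and Nlrx1-/- in orange, with a line joining the vehicle and stimulated libraries of a litter, a marker shape per litter and a black bar at the mean. Mmp14 rose and Timp4, Timp2 and Mmp2 fell in all 8 litters, and the Nlrx1-/- litters lay farther apart than the WT litters for Mmp2, Mmp15, Timp2 and Timp3.

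Among the proteinases, Mmp14 rose and Mmp2 fell after LPS+IFNγ in both genotypes. Among the inhibitors, Timp4 fell most and Timp2 fell less, again in both genotypes, while Timp3 and Mmp15 did not pass the test. Across all 16066 genes tested with edgeR's quasi-likelihood test, with litter as a block and Benjamini-Hochberg adjustment at 0.05, 23.7% were higher and 20.2% lower in the WT response, and 25.3% were higher and 24.2% lower in the Nlrx1-/- response. Of the 6 members, 1 was higher and 3 were lower in each genotype, with a median log2 fold change of -0.31 in WT (-0.02 over all genes) and -0.28 in Nlrx1-/- (-0.03 over all genes). In either direction 4 of 6 members were called in each genotype, beside 43.9% and 49.4% of all genes. With so few genes nothing particular to the family is read from this share.

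Mmp14 encodes the membrane-type enzyme that activates proMMP2. In WT litters 1 to 4 it was at 7.50, 7.74, 7.50 and 7.96 log2 CPM in vehicle and at 7.97, 8.34, 8.10 and 8.41 log2 CPM after stimulation. In Nlrx1-/- litters it went from 7.49, 7.43, 7.59 and 7.29 log2 CPM to 8.10, 8.13, 8.09 and 7.95 log2 CPM. Every stimulated library was above every vehicle library of its genotype. The edgeR log2 fold change was 0.52 ± 0.0477 (SE, adjusted p = 1.14e-05) in WT, or 1.43-fold, and 0.60 ± 0.0478 (SE, adjusted p = 3.31e-06) in Nlrx1-/-, or 1.52-fold. Groups that did not overlap in either direction were found for 37.8% of the 16707 genes of the table in the WT response and for 32% in the Nlrx1-/- response.

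Mmp15, a close relative of Mmp14, changed less. Its WT levels were 7.93, 7.76, 7.82 and 7.58 log2 CPM in vehicle and 8.32, 8.01, 7.89 and 7.70 log2 CPM after stimulation. In Nlrx1-/- litters the values were 8.18, 9.17, 7.92 and 8.35 log2 CPM and then 8.67, 8.91, 8.12 and 8.66 log2 CPM. By log2 CPM it was higher after stimulation in 7 of 8 litters and lower in Nlrx1-/- litter 2, where the vehicle library was the highest of all. The groups overlapped in both genotypes. The direction in WT depended on the unit, and TPM is scaled only by transcript length and the library's total. By TPM Mmp15 went from 114.7, 99.53, 105.0 and 87.9 to 131.3, 99.28, 93.17 and 83.34 in WT, lower in litters 2, 3 and 4. In Nlrx1-/- each litter had the same direction by TPM as by log2 CPM. The log2 fold changes of 0.20 ± 0.0982 in WT (SE, adjusted p = 0.133) and 0.17 ± 0.0981 in Nlrx1-/- (SE, adjusted p = 0.177) did not pass the edgeR test. Without Nlrx1-/- litter 2 both passed it, at 0.2 in WT (adjusted p = 0.0226) and 0.32 in Nlrx1-/- (adjusted p = 0.00437) on the log2 scale, with the WT litters the same in both fits.

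Mmp2, gelatinase A, was the least abundant member of the table. In WT litters it was at 3.12, 3.34, 3.39 and 3.27 log2 CPM in vehicle and fell to 1.52, 2.37, 1.75 and 2.43 log2 CPM. In Nlrx1-/- litters it went from 3.52, 4.59, 3.12 and 4.34 log2 CPM to 3.03, 3.91, 2.65 and 3.86 log2 CPM. The WT groups were apart, whereas the Nlrx1-/- groups overlapped because their litters differed by more than the stimulus moved them. Within litters the fall ranged from -1.64 to -0.84 in WT and from -0.68 to -0.47 in Nlrx1-/- on the log2 CPM scale. The edgeR log2 fold change was -1.27 ± 0.147 (SE, adjusted p = 6.09e-05) in WT, which is 2.41-fold lower, and -0.55 ± 0.138 (SE, adjusted p = 0.00732) in Nlrx1-/-, which is 1.46-fold lower. Without the litter block the Nlrx1-/- fall was not called (adjusted p = 0.174).

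Timp2 encodes the inhibitor that also takes part in proMMP2 activation. It was at 8.66, 8.95, 9.01 and 8.95 log2 CPM in WT vehicle libraries and at 8.34, 8.62, 8.62 and 8.67 log2 CPM after stimulation. In Nlrx1-/- litters it went from 8.27, 7.92, 8.81 and 8.04 log2 CPM to 7.81, 7.42, 8.45 and 7.40 log2 CPM. It fell in all 8 litters, while the vehicle and stimulated groups overlapped in both genotypes. The log2 fold change by edgeR was -0.34 ± 0.0528 (SE, adjusted p = 0.00044) in WT and -0.51 ± 0.0531 (SE, adjusted p = 2.37e-05) in Nlrx1-/-. Both calls were lost without the litter block, with adjusted p = 0.244 and 0.0901.

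Timp3 encodes the TIMP that stays bound to the matrix and also inhibits several ADAM proteinases. Its WT values were 8.59, 8.87, 8.86 and 9.11 log2 CPM in vehicle and 8.39, 8.84, 8.51 and 8.61 log2 CPM after stimulation. The Nlrx1-/- values were 8.46, 7.64, 8.60 and 7.76 log2 CPM and then 8.25, 8.14, 8.22 and 7.69 log2 CPM. It was lower after stimulation in 7 of 8 litters and higher by 0.50 log2 CPM in Nlrx1-/- litter 2. The edgeR log2 fold changes of -0.28 ± 0.119 in WT (SE, adjusted p = 0.0801) and -0.059 ± 0.12 in Nlrx1-/- (SE, adjusted p = 0.713) did not pass the test. Without Nlrx1-/- litter 2 both passed it, at -0.28 in WT (adjusted p = 0.0109) and -0.24 in Nlrx1-/- (adjusted p = 0.0431).

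Timp4 showed the largest response of the 6 genes. In WT litters it went from 6.22, 5.77, 5.69 and 5.54 log2 CPM to 4.37, 4.53, 4.30 and 4.58 log2 CPM. In Nlrx1-/- litters it went from 6.30, 6.30, 6.12 and 6.09 log2 CPM to 4.46, 3.82, 4.51 and 4.09 log2 CPM. No stimulated library reached the level of a vehicle library. The edgeR log2 fold change was -1.37 ± 0.153 (SE, adjusted p = 4.71e-05) in WT, 2.58-fold lower, and -1.99 ± 0.155 (SE, adjusted p = 2.9e-06) in Nlrx1-/-, 3.98-fold lower.

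**Figure D2:**
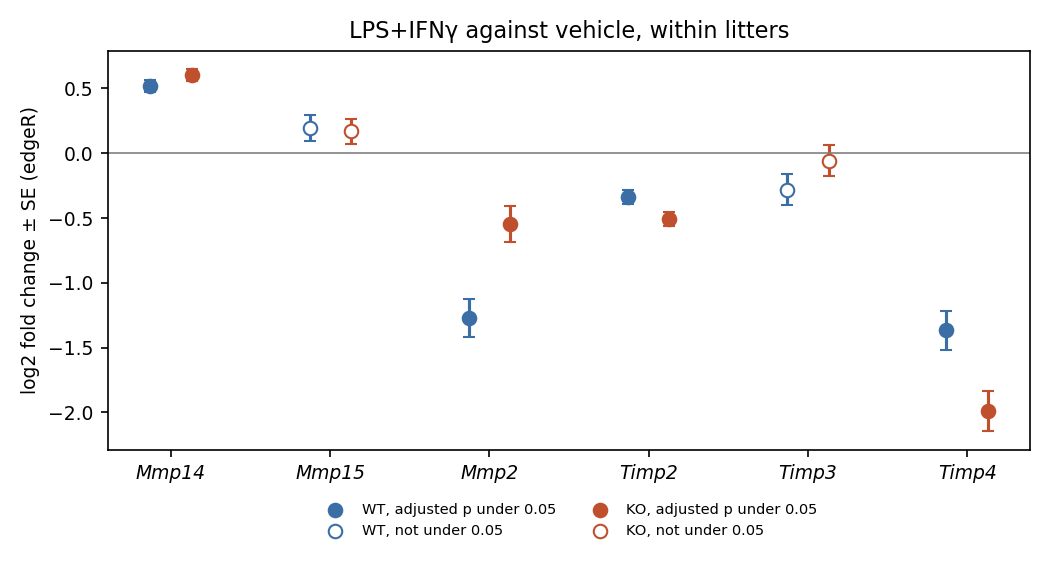
edgeR log2 fold changes of stimulated against vehicle libraries within litters, WT in blue and Nlrx1-/- in orange, bars 1 SE, filled where the adjusted p was under 0.05. Mmp14 is above 0 and Mmp2, Timp2 and Timp4 are below 0 in both genotypes, while Mmp15 and Timp3 are open.

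Some exons of these genes share bases with other genes, and the libraries were not stranded, so reads there cannot be told apart by strand. Timp4 shares exon bases with Syn2 on the opposite strand, which was at 41 to 120 TPM and was higher after stimulation (86 to 120 TPM against 53.1 to 72.8 TPM in WT), opposite to Timp4. Timp3 shares exon bases with Syn3 on the opposite strand, at 0.769 to 2.18 TPM, and Timp2 with Cep295nl on its own strand, at 0.0639 to 0.593 TPM. Mmp2 and Mmp14 share exon bases with the gene models Gm45472 and Gm62879 on the opposite strand. The part of these genes in the values of the members was not tested.

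The scaling of the libraries moved these responses. TPM, in which levels between genes and marker sums are given, carries no TMM scaling. With library size alone in place of TMM scaling, the median log2 fold change over all genes was -0.18 in WT and -0.19 in Nlrx1-/-. The split of calls then moved from 3813 higher and 3240 lower to 2433 and 5384 in WT, and from 4057 and 3886 to 2657 and 5887 in Nlrx1-/-. Mmp14 was then at 0.36 and 0.44 on the log2 scale and Timp2 at -0.50 and -0.67, in WT and Nlrx1-/-. Mmp15 was at 0.034 and 0.006, and all 6 members kept their signs. Timp3 was at -0.44 in WT (adjusted p = 0.00891 by edgeR), and of the alternatives run it also passed in WT by DESeq2 (adjusted p = 0.0336) and without Nlrx1-/- litter 2.

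The responses of the genotypes differed most for Mmp2 and Timp4, and neither difference passed the test. The interaction of genotype and stimulus was 0.72 ± 0.201 on the log2 scale for Mmp2 (SE, unadjusted p = 0.00468, adjusted p = 0.223 by edgeR), a smaller fall in Nlrx1-/-. It was -0.62 ± 0.214 for Timp4 (SE, unadjusted p = 0.0146, adjusted p = 0.233 by edgeR), a larger fall in Nlrx1-/-. For Timp2 it was -0.17 ± 0.0748 (SE, adjusted p = 0.319 by edgeR), and for Mmp14, Mmp15 and Timp3 it lay between -0.026 and 0.22. edgeR called 0 of 16066 genes (0%) in this comparison, while 2469 had an unadjusted p under 0.05. limma-voom called 0 as well, and DESeq2 called 113 higher and 197 lower, none of them a member. By DESeq2 the interaction was 0.73 for Mmp2 (adjusted p = 0.0515) and -0.62 for Timp4 (adjusted p = 0.0744). An adjusted p that misses the threshold does not show that the responses were alike.

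Between genotypes, Mmp2 was higher in stimulated Nlrx1-/- astrocytes, and this was the only member called. In stimulated libraries it was at 2.65 to 3.91 log2 CPM in Nlrx1-/- and 1.52 to 2.43 log2 CPM in WT, with no overlap. The edgeR log2 fold change was 1.38 ± 0.337 (SE, adjusted p = 0.0413), or 2.60-fold. In this comparison 2.65% of the 16066 genes were higher and 2.38% lower in Nlrx1-/- (5.03% in either direction), against 1 higher and 0 lower of 6 members. With the 8 stimulated libraries alone, edgeR called 0 genes higher and 0 lower. The Mmp2 call was lost by edgeR on leaving out any 1 litter other than Nlrx1-/- litter 3 (adjusted p up to 0.15), with limma-voom (adjusted p = 0.0843) and with the 8 stimulated libraries alone (adjusted p = 0.0746). Of the 9 alternatives that left no litter out, 7 kept the call, among them DESeq2 (adjusted p = 0.00199). The log2 fold change with 1 litter left out stayed between 1.19 and 1.57.

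Without Nlrx1-/- litter 3 the number of genes called after stimulation was 1499 higher and 1834 lower, in place of 426 and 382, and in vehicle 590 and 720, in place of 0 and 0. Mmp2 after stimulation was then at 1.57 on the log2 scale (adjusted p = 0.00423 by edgeR) and in vehicle at 0.93 (adjusted p = 0.0502). Without Nlrx1-/- litter 2 it was at 1.19 after stimulation (adjusted p = 0.0831) and at 0.46 in vehicle (adjusted p = 0.611), with 7 genes higher and 6 lower after stimulation and 0 higher and 3 lower in vehicle.

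In vehicle the same gene was at 3.12 to 4.59 log2 CPM in Nlrx1-/- and 3.12 to 3.39 log2 CPM in WT, overlapping at the lower end. The log2 fold change was 0.72 ± 0.325 (SE, adjusted p = 0.238 by edgeR). edgeR called 0 of 16066 genes (0%) in vehicle, with 3152 at an unadjusted p under 0.05, so no member was called. limma-voom called 1 gene and DESeq2 486 higher and 295 lower.

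Mmp15 was higher in Nlrx1-/- by 0.70 ± 0.225 in vehicle (SE, adjusted p = 0.137 by edgeR) and by 0.61 ± 0.225 after stimulation (SE, adjusted p = 0.0967 by edgeR), on the log2 scale. DESeq2 called both (adjusted p = 0.0399 and 0.0381). By edgeR with 1 litter left out the vehicle difference ranged from 0.38 without Nlrx1-/- litter 2 (adjusted p = 0.435) to 0.85 without litter 3 (adjusted p = 0.0241), and the stimulated difference from 0.49 (adjusted p = 0.112) to 0.74 (adjusted p = 0.0195) on the same omissions. Mmp14 differed little, by -0.25 ± 0.112 in vehicle (SE, adjusted p = 0.24 by edgeR) and -0.16 ± 0.112 after stimulation (SE, adjusted p = 0.352 by edgeR).

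For the inhibitors, Timp2 was at -0.61 ± 0.217 in vehicle (SE, adjusted p = 0.164) and -0.75 ± 0.217 after stimulation (SE, adjusted p = 0.0544) for Nlrx1-/- against WT by edgeR. The stimulated difference passed the test by DESeq2 and by limma on the deposited log2 CPM, and by edgeR without WT litter 1 or without Nlrx1-/- litter 3. Without the latter it was at -0.82 in vehicle (adjusted p = 0.00823) and -1.03 after stimulation (adjusted p = 0.00243), and without Nlrx1-/- litter 2 at -0.5 (adjusted p = 0.46) and -0.63 (adjusted p = 0.134). Timp3 was at -0.70 ± 0.196 (SE, adjusted p = 0.12) in vehicle and -0.52 ± 0.196 (SE, adjusted p = 0.102) after stimulation by edgeR, without Nlrx1-/- litter 3 at -0.87 (adjusted p = 0.0222) and -0.57 (adjusted p = 0.0524), and without litter 2 at -0.56 (adjusted p = 0.402) and -0.54 (adjusted p = 0.144). DESeq2 called it in vehicle (adjusted p = 0.0177). Its stimulated groups did not overlap, with 7.69 to 8.25 log2 CPM in Nlrx1-/- and 8.39 to 8.84 log2 CPM in WT. In this comparison 13.3% of the genes of the table did not overlap, and in vehicle 9.45%. Timp4 was at 0.37 ± 0.153 in vehicle (SE, adjusted p = 0.209) and -0.22 ± 0.157 after stimulation (SE, adjusted p = 0.383) by edgeR.

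**Figure D3:**
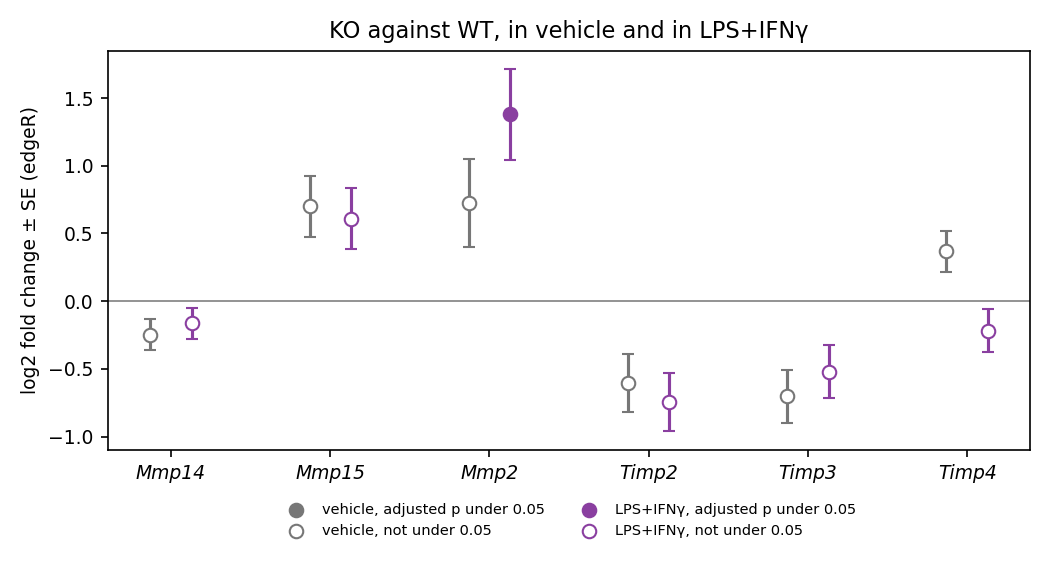
edgeR log2 fold changes of Nlrx1-/- against WT libraries, in vehicle (grey) and after LPS+IFNγ (purple), bars 1 SE, filled where the adjusted p was under 0.05. Mmp2 after stimulation, at 1.38, is the only filled point, with Mmp15 above 0 and Timp2 and Timp3 below 0 in both treatments.

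The spread within Nlrx1-/- followed the litters. In vehicle, litters 2 and 4 had the most Mmp2 and Mmp15 and the least Timp2 and Timp3, and litter 3 had the least Mmp2 and Mmp15 and the most Timp2 and Timp3. The sum of the astrocyte markers moved with them, from 2980 and 3440 TPM over 10 genes in vehicle litters 2 and 4 to 5000 TPM in litter 3. Not all of the markers spread alike. Over the Nlrx1-/- vehicle litters Gfap was at 123.8 to 1080 TPM and Aqp4 at 126.2 to 421.8 TPM. Slc1a3 was at 1062 to 1281 TPM and Aldh1l1 at 506.3 to 578.2 TPM. After stimulation, 3 of the 10 (Gja1, S100b and Aldoc, of gap junctions, calcium binding and glycolysis) were lower in Nlrx1-/- by edgeR, at log2 fold changes of -1.33, -2.0 and -0.62 (adjusted p = 0.0472, 0.0439 and 0.0455), and 0 were higher.

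Other cell types were present at low or moderate levels. Oligodendrocyte-lineage markers summed over 7 genes were at 612.4 to 814.7 TPM in WT vehicle, 530.8 to 653.4 TPM in Nlrx1-/- vehicle and 348.6 to 605.5 TPM after stimulation in either genotype. Of the 7, Pdgfra was called lower in stimulated Nlrx1-/- (-0.83 on the log2 scale, adjusted p = 0.0396 by edgeR). Fibroblast markers, which accompany Mmp2 in many tissues, were highest in Nlrx1-/- litter 3, at 31.1 TPM in vehicle and 19.5 TPM stimulated summed over 6 genes, where Mmp2 was lowest of the Nlrx1-/- litters. Their sum was lower after stimulation in all 8 litters, as Mmp2 was, at 11.9, 10.6, 10.1 and 14.2 TPM in WT vehicle litters 1 to 4 and 4.57, 8.61, 6.18 and 6.07 TPM stimulated. It went from 11.4, 6.42 and 9.32 TPM to 4.66, 4.24 and 6.15 TPM in Nlrx1-/- litters 1, 2 and 4. Endothelial and mural markers summed to 1.506 to 8.587 TPM over 8 genes and neuronal markers to 316.4 to 428.4 TPM over 5, mostly Map2. The part of cell composition in the responses and in the differences between genotypes was not tested.

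Among the 6 members of the table, the balance of inhibitor to proteinase transcripts fell with stimulation. Timp1, which rose from 8.549 to 28.6 TPM in WT, is not in these sums, nor are other expressed MMPs such as Mmp11, Mmp16, Mmp17 and Mmp19. The sum of Timp2, Timp3 and Timp4 over the sum of Mmp2, Mmp14 and Mmp15, in TPM, was 2.17, 2.45, 2.66 and 2.53 in WT vehicle litters 1 to 4 and 1.26, 1.55, 1.59 and 1.54 after stimulation. In Nlrx1-/- litters it was 1.69, 0.783, 2.23 and 1.23 in vehicle and 0.849, 0.63, 1.28 and 0.629 after stimulation. The ratio was lower after stimulation in all 8 litters, and only in Nlrx1-/- litters did the MMP sum exceed the TIMP sum, in 1 vehicle and 3 stimulated libraries. For Timp2 over Mmp14 alone the range was 2.1 to 3.02 in WT vehicle, 1.27 to 1.51 in WT stimulated, 1.49 to 2.47 in Nlrx1-/- vehicle and 0.645 to 1.36 in Nlrx1-/- stimulated libraries. These ratios describe RNA and were not tested.

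**Figure D4:**
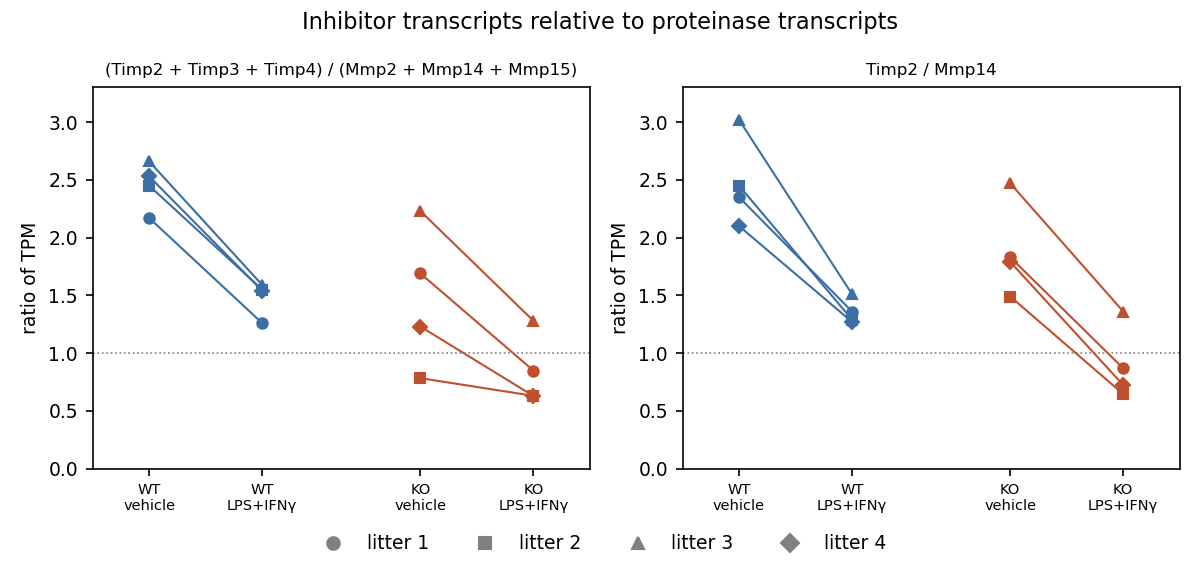
Ratio of TPM in each library, for the 3 TIMPs over the 3 MMPs (left) and for Timp2 over Mmp14 (right), with lines joining the libraries of a litter and a dotted line at 1. All 8 lines fall in both panels, from 2.17 to 2.66 down to 1.26 to 1.59 in WT on the left, and Nlrx1-/- litter 3 stays nearest to WT.

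The 4 members below the table had few reads in any library. Mmp9, gelatinase B, had 13, 8, 6 and 12 reads in the stimulated Nlrx1-/- litters 1 to 4, against 2, 0, 2 and 2 in stimulated WT, 2, 0, 0 and 6 in Nlrx1-/- vehicle and 4, 0, 2 and 0 in WT vehicle. In stimulated libraries this was 0.276 ± 0.0895 RPM (reads scaled to the library's total) in Nlrx1-/- and 0.0467 ± 0.0323 in WT (SD, n = 4), without overlap (two-sided exact permutation p = 0.0286, the smallest possible here, and 0.2 adjusted over 7 such tests). Without the filter on low counts edgeR gave an adjusted p of 0.248 over 24219 genes. Pooled over 4 libraries the rate was 0.2753 RPM (95% exact Poisson interval 0.1958 to 0.3764) in stimulated Nlrx1-/- and 0.0449 (0.01648 to 0.09772) in stimulated WT, and such intervals cover counting error only.

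Mmp3, stromelysin 1, had 3, 11, 7 and 5 reads in stimulated Nlrx1-/- and 1, 4, 0 and 1 in stimulated WT, with 1 read in all Nlrx1-/- vehicle libraries and 3 in all WT vehicle libraries. The stimulated groups overlapped (two-sided exact permutation p = 0.0571, 0.2 adjusted over 7 tests). Mmp13, collagenase 3, had 0 to 15 reads a library with no order among groups (exact permutation p = 0.543 in vehicle and 0.457 stimulated, both 0.95 after adjustment). Mmp10, stromelysin 2, had 1 read in all 16 libraries, and in the stimulated Nlrx1-/- libraries its 0 reads allow up to 0.02118 RPM as 3 reads of the pooled total, or 0.02604 RPM as the upper end of the 95% exact Poisson interval. None of these genes passed an adjusted test. With 4 litters a side the smallest exact permutation p is 0.0286, which stood at 0.2 after adjustment over 7 tests. The exact test could therefore not pass a single gene, whatever its reads, and nothing is concluded from it. Mmp10 had no exact test in the stimulated libraries, where it had no reads.

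**Figure D5:**
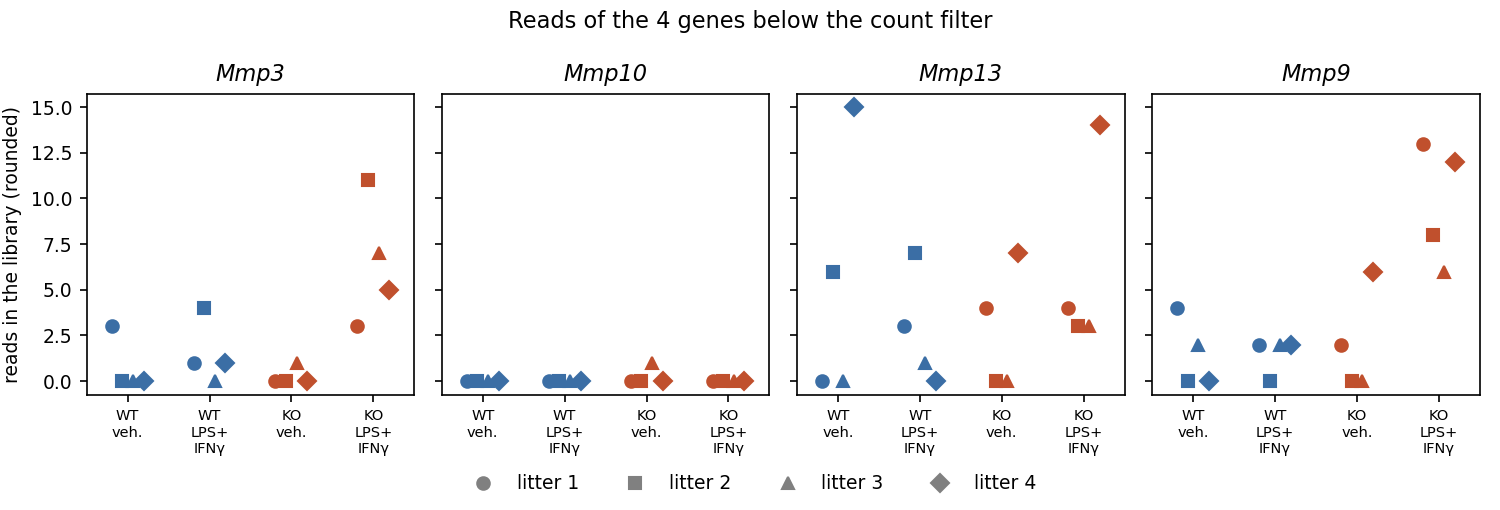
Rounded reads of Mmp3, Mmp10, Mmp13 and Mmp9 in each library, WT in blue and Nlrx1-/- in orange, with a marker shape per litter. Mmp9 is at 6 to 13 reads in the stimulated Nlrx1-/- libraries and at 0 to 6 elsewhere, Mmp13 shows no order among groups, and Mmp10 has a single read.

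The rest of the family responded in both directions. Of 17 other genes of the family, Timp1 included, 9 were in the table and the other 8 had at most 8 reads in a library. In WT 4 were higher and 3 lower, and in Nlrx1-/- 5 were higher and 2 lower. Over all genes tested, 23.7% were higher and 20.2% lower in WT, and 25.3% and 24.2% in Nlrx1-/-. The counts of this list and of those below stand beside these shares and were not tested against them. Timp1, the inducible TIMP, rose by 1.99 ± 0.336 in WT (SE, adjusted p = 0.000783) and 2.16 ± 0.341 in Nlrx1-/- (SE, adjusted p = 0.000424) on the log2 scale by edgeR, opposite to Timp2 and Timp4. It went from 8.549 ± 2.311 to 28.6 ± 2.071 TPM in WT (SD, n = 4), still under the level of Timp2. Mmp19 rose by 1.64 and 2.67, and Mmp17, a membrane-anchored MMP, by 1.5 and 0.75, in WT and Nlrx1-/-. Mmp11 fell by 0.53 and 1.11 on the log2 scale. None of the 9 was called between genotypes or in the interaction by edgeR.

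Among the activators, receptors and other inhibitors listed, Lcn2, lipocalin 2, changed most with stimulation. It had 0 to 10 reads in the vehicle libraries and 1074 to 5375 reads in the stimulated ones. Of 16 activators, receptors and other inhibitors tested, 7 were higher and 3 lower in WT, and 8 were higher and 3 lower in Nlrx1-/-. Cd44, a hyaluronan receptor that docks MMPs at the cell surface, rose by 1.43 and 1.51 on the log2 scale. Plaur, the urokinase receptor, had 0 to 21 reads in vehicle and 27 to 177 after stimulation. Pcsk6, a proprotein convertase, fell by 0.91 and 1.13 on the log2 scale. No gene of this list was called between genotypes.

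Of 26 ADAM and ADAMTS proteinases tested, 6 were higher and 12 lower in WT, and 6 were higher and 9 lower in Nlrx1-/-. Adamts3, a procollagen N-proteinase, rose by 4.69 and 4.81 on the log2 scale, and Adamts14, of the same kind, by 2.93 and 3.08. The third of them, Adamts2, fell by 2.59 and 2.78. Adamts16 was at 3 to 79 reads in vehicle and 0 to 11 after stimulation. Adamts14 was also higher in stimulated Nlrx1-/- (1.41 ± 0.392, SE, adjusted p = 0.0497 by edgeR), the only gene of the list called between genotypes.

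Of 24 basement membrane and matrix genes, whose products MMPs cut, 2 were higher and 10 lower in WT, and 6 were higher and 11 lower in Nlrx1-/-. Over all genes 43.9% and 49.4% were called in either direction, and nothing particular to this list is read from its counts. Lama2, of the laminin of brain vessels, fell by 1.39 and 1.13 on the log2 scale, and the linker gene Nid1 was at -1.27 in WT and -1.1 in Nlrx1-/-. Nid2 fell by 0.86 in both, and Col6a2 by 0.85 and 1.31. In stimulated Nlrx1-/- libraries Lama1 (0.81, adjusted p = 0.0489) and Lamb1 (1.06, adjusted p = 0.0396) were higher and Lamb2 (-0.37, adjusted p = 0.0396) was lower by edgeR. The AP-1 and Ets factors, 11 genes, had 4 higher and 3 lower in WT, and 5 higher and 1 lower in Nlrx1-/-. Junb rose by 1.35 and 2.07, Jun by 1.35 and 1.81 and Fosl1 by 1.04 and 1.25 on the log2 scale, while the Ets factor Etv5 fell by 0.19 and 0.18. Fos fell by 1.27 in WT (adjusted p = 0.00155 by edgeR) and was not called in Nlrx1-/- (-0.42, adjusted p = 0.173 by edgeR). Mmp3, Mmp10 and Mmp13, whose promoters carry the AP-1 letters shown above, had 0 to 15 reads a library. A link between these factors and these genes was not tested.

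The gene most like each member over the 16 libraries was found among 12600 genes, by Pearson's r of the deposited log2 CPM, given as a description since the libraries share litters and treatments. For Mmp14 it was Tifa (r = 0.965), an adaptor of NF-kB signalling, and for Mmp15 the kinase gene Camkk2 (r = 0.979). For Mmp2 it was the chromatin regulator Asxl1 (r = 0.944). Timp2 went with the zinc transporter gene Slc39a12 (r = 0.981), Timp3 with the actin-binding Synpo2 (r = 0.956), and Timp4 with the potassium channel subunit Kcnmb4 (r = 0.983).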

How the data were processed

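RNA of 16 astrocyte libraries was captured by poly-A and sequenced. Per the labels and the study's methods, the authors quantified reads with Salmon 1.7.0 on RefSeq transcripts of GRCm39, and the deposited files hold expected counts and TPM per transcript, with no strand used. The authors also deposited a table of CPM on TMM-adjusted library sizes, treated here as a signal, and its log2 values. Transcripts were summed to genes by RefSeq symbol: 106440 of 129698 transcripts matched, with 96.7 to 97.3% of reads, and member sums differed from the deposited CPM by at most 0.058 on the log2 scale.

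Expected counts were rounded and tested with edgeR 4.0.16 (R 4.3.3), TMM, length offsets and filterByExpr (minimum count 10). Responses and the interaction used litter within genotype as a block, and comparisons of genotypes used the 4 conditions without litter. Vehicle and stimulated libraries of a litter come from the same pups, and their deviations correlated at 0.26 to 0.62. DESeq2 1.42.0, limma 3.58.1 and other settings were alternatives. The scripts were tested on simulated data. The members and gene lists were chosen with earlier results of these data known. From each list up to 4 genes called in both responses with the largest mean change, and up to 4 called between genotypes, are named, with Fos in addition. The summed level of the microglial markers is not reported here. In the responses and the interaction, p-values measure how far the change within a litter varies between litters. Between genotypes, the edgeR fit pools the spread over both treatments. It counts the vehicle and stimulated libraries of a litter as separate although they correlate, which can make its p-values too small.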

Additional observations from a re-analysis of the deposited data

Results flagged for a closer look

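Among the 36 groups of 4 values checked (levels and paired responses of the 6 genes), 2 held a value apart from the other 3 by Dixon's 95% criterion for 4 values, and chance alone sets apart about 1 group in 20. The fall of Mmp2 in Nlrx1-/- litter 2, at -0.68 log2 CPM, was larger than the -0.47 to -0.49 of the other 3 litters. Timp2 in the stimulated WT litter 1, at 8.34 log2 CPM, was below the 8.62 to 8.67 of the other stimulated WT litters.

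Outside the deposited table, reads of Mmp9 summed to 39 and those of Mmp3 to 26 over the 4 stimulated Nlrx1-/- libraries, above every Nlrx1-/- vehicle library relative to depth. The Nlrx1-/- vehicle libraries held 8 and 1 reads in all. Without the filter on low counts, edgeR gave log2 fold changes of 3.20 ± 1.447 (SE, adjusted p = 0.119) for Mmp9 and 4.46 ± 1.904 (SE, adjusted p = 0.0968) for Mmp3 in the Nlrx1-/- response. Neither passed the threshold.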

How the results depend on the processing

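Mmp14, Mmp2 in WT and Timp4 kept their response calls under every alternative run, and Timp2 kept its calls under all but the fit with no replicate block. With no replicate block, 1 member was called lower in Nlrx1-/- in place of 3. Leaving out 1 litter at a time gave 1 to 2 members higher and 3 to 4 lower in each response, the additional ones being Mmp15 and Timp3 without Nlrx1-/- replicate 2. In vehicle between genotypes, DESeq2 called 1 member higher and 1 lower, and leaving out 1 litter gave 0 to 1 higher and 0 to 2 lower, the calls arising without Nlrx1-/- replicate 3. After stimulation, DESeq2 called 2 members higher, limma-voom 0 and the 8 stimulated libraries alone 0, and leaving out 1 litter gave 0 to 2 higher and 0 to 1 lower. DESeq2, limma on the deposited log2 CPM and the replicate block each called 1 member (Timp2) lower there. The replicate block joins litters of equal number across genotypes, which share only a number (correlations -0.24 to 0.36). Values that changed sign were small. Timp3 in the Nlrx1-/- response was 0.003 and 0.047 without Nlrx1-/- replicates 1 and 3, and the Mmp15 interaction ranged from -0.12 to 0.12 with 1 litter left out, with 0.029 without WT replicate 1 and 0.12 without Nlrx1-/- replicate 2. The causes were not tested. By TPM in place of log2 CPM, 4 of 6 members kept their place in the order of levels in WT vehicle, WT stimulated and Nlrx1-/- vehicle, and 3 of 6 in Nlrx1-/- stimulated libraries. Paired responses moved by less than 1 SD with a pseudocount of 1 or 0.1. Counts over all genes moved by over 1.5 times in the WT response with library size alone (2433 higher for 3813, 5384 lower for 3240), as in Nlrx1-/- (2657 and 5887 for 4057 and 3886). After stimulation between genotypes, 426 higher and 382 lower became 1266 and 1236 by DESeq2, 199 and 185 by limma-voom, 735 and 736 by limma on the deposited log2 CPM, 1014 and 1192 with the replicate block, 0 and 0 with the 8 libraries alone, and 0 to 1499 higher and 1 to 1834 lower with 1 litter left out, the highest without Nlrx1-/- replicate 3. The 0 and 0 in vehicle became 486 and 295 by DESeq2 and up to 590 and 720 without that litter, and those of the interaction 113 and 197, and up to 125 and 192. The fit with library size alone was chosen after seeing the data.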
